A study of Bos taurus with 12 samples.

Results

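The 8 genes CDH5, CLDN5, PECAM1, TEK, ROBO4, KDR, EMCN and VWF mark the endothelium of blood vessels and were followed across the wall of the bovine ovarian follicle. They were chosen by gene symbol, as every probe set that the platform annotation assigns to one of these 8 symbols. This gave 13 of 24016 probe sets, and 8 of the 9155 genes that have a probe set with 1 symbol. A gene with more than 1 probe set was represented by its brightest, by mean log2 signal over the 12 arrays, and the dimmer ones are given beside it.

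The arrays were Affymetrix bovine expression arrays of 1 colour, hybridised with labelled total RNA. Theca cells, the stroma-like and steroid-producing layer outside the follicle's basement membrane, and granulosa cells, the epithelial layer inside it, were taken from follicles of 3 size classes, which the labels call small (at most 5 mm), medium (between 5 and 10 mm) and large (above 10 mm). Each layer and size had 2 arrays, so that 6 theca arrays stood against 6 granulosa arrays. All ovaries were from young heifers that were cycling and not pregnant. They were used when they were in the follicular stage, with no corpus luteum. No animal was treated and no gene was altered. The labels' extract protocol gives cells of 20 to 40 follicles of 1 size per RNA pool, whereas the design text gives 20 to 40 ovaries of 6 to 10 animals per replicate. The labels call the replicates biological and leave unsaid whether 1 animal gave cells to several pools, so the p-values measure the spread between pools.

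Endothelial cells line the inside of every blood vessel. They are held together by junction proteins, and receptors on their surface read growth factors and guidance cues that control how vessels sprout, stabilise and regress. In the ovary the capillaries of a growing follicle run in the theca, and they reach the granulosa layer only after ovulation, when the basement membrane breaks down. In bulk RNA of a layer, fewer endothelial cells and less RNA per endothelial cell cannot be told apart.

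Values are deposited signal intensities on a linear scale, and every array had the same trimmed mean of 125.03 to 125.04. Differences are on the log2(signal + 16) scale and so understate changes of dim probe sets. Of 24016 probe sets, 17236 passed a filter on low signal, and a call means an adjusted p under 0.05 (limma, Benjamini-Hochberg over all 17236). Of the 8 genes all but KDR passed this filter, on 10 of the 13 probe sets. On 2 arrays, quality measures stood apart. Replicate 1 of theca from small follicles had a GAPDH 3'/5' signal ratio of 8.36, against 0.984 to 1.30 on the other 11 arrays. Replicate 1 of granulosa from large follicles had an actin 3'/5' ratio of 21.0 and a median signal of 48.8, against ratios of 2.39 to 11.2 and medians of 33.7 to 39.2 elsewhere. The description label names theca for all 12 samples. The titles were used for the groups, and the theca markers CYP17A1 and INSL3 were 5.42 ± 0.33 and 3.89 ± 0.27 log2 units (± SE) higher in the arrays titled theca.

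Among the junction genes, CDH5 (Entrez gene 414735) encodes VE-cadherin, the adhesion molecule of the junctions between endothelial cells. Its signal was 116.2 and 197.2 in theca of small follicles, 320.6 and 252.6 in theca of medium follicles, and 144.5 and 65.5 in theca of large follicles. In granulosa cells it was 23.3 and 18.1 in small, 34.7 and 18.7 in medium, and 64.1 and 21.8 in large follicles. All 6 theca arrays were above all 6 granulosa arrays, by the narrow gap between the lower large theca pool and replicate 1 of large granulosa. Over all sizes CDH5 was 4.09-fold higher in theca (2.03 ± 0.25 log2 units ± SE, limma adjusted p = 6.72e-05).

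PECAM1 (Entrez gene 282303), the adhesion receptor CD31 that sits at contacts between endothelial cells and also on platelets and leukocytes, had signals of 234.4 and 138.6, 257.8 and 235.8, and 139.8 and 65.2 in theca of small, medium and large follicles. The granulosa signals were 15.8 and 18.2, 22.4 and 23.1, and 100.5 and 26.8 in the same order of size. In all, 5 of the 6 theca arrays were above every granulosa array. The exception was the lower large theca pool, which lay under replicate 1 of large granulosa. PECAM1 was 4.01-fold higher in theca over all sizes (2.00 ± 0.26 log2 units, limma adjusted p = 0.000105).

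CLDN5 (Entrez gene 617453) encodes claudin-5, a tight junction protein of endothelium that some epithelia also make. Its theca signals were 645.1 and 294.6 in small, 471.6 and 325.3 in medium, and 160.3 and 150.7 in large follicles. Its granulosa signals were 162.6 and 224.6 in small, 70.2 and 60.3 in medium, and 192.4 and 174.5 in large follicles. Granulosa cells of small and large follicles also gave signals over 160, and both large theca pools were below both large granulosa pools. Over all sizes it was 2.11-fold higher in theca (1.08 ± 0.22 log2 units, limma adjusted p = 0.00284).

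Among the receptors, TEK (Entrez gene 280939) encodes TIE2, the endothelial tyrosine kinase that binds the angiopoietins. TEK gave 143.4 and 200.6 in theca of small, 191.2 and 192.6 in theca of medium, and 90.1 and 66.2 in theca of large follicles. Granulosa cells gave 15.9 and 22.8 in small, 20.1 and 10.9 in medium, and 39.6 and 30.1 in large follicles. The layers did not overlap on any of the 12 arrays. TEK was 4.02-fold higher in theca over all sizes (2.01 ± 0.19 log2 units), with the lowest adjusted p of the members (limma, 4.59e-06).

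ROBO4 (Entrez gene 783785) is the endothelial member of the roundabout receptors and is known for keeping vessels stable. Its theca signals were 252.5 and 90.6 in small, 95.0 and 114.3 in medium, and 41.9 and 7.4 in large follicles. The granulosa signals were 0.9 and 3.8 in small, 18.8 and 9.9 in medium, and 36.8 and 10.7 in large follicles. The layers were far apart in small and medium follicles and interleaved in large ones, where the lowest of the 4 arrays was a theca pool. The difference over all sizes was 3.31-fold (1.73 ± 0.29 log2 units, limma adjusted p = 0.000771).

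KDR (Entrez gene 407170) encodes VEGFR2, the main signalling receptor for VEGFA on endothelium. The brighter of its probe sets gave 16.9 and 7.9, 9.6 and 13.3, and 8.9 and 6.3 in theca of small, medium and large follicles. In granulosa it gave 0.7 and 1.8, 6.9 and 12.9, and 17.2 and 10.3 in the same sizes. All 12 values lay below the filter's signal of 22.5, and the dimmer probe set ran from 0.3 to 10.5. KDR was therefore not tested, and these probe sets did not give a level that can be compared between the layers.

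Of the remaining members, EMCN (Entrez gene 616367) encodes endomucin, a sialomucin on the luminal face of capillary and venous endothelium. EMCN signals in theca were 241.9 and 347.8 in small, 244.0 and 228.7 in medium, and 194.1 and 88.9 in large follicles. In granulosa cells they were 16.1 and 2.6 in small, 14.5 and 1.4 in medium, and 72.9 and 15.3 in large follicles. No granulosa array reached the lowest theca array. EMCN had the widest layer difference of the members, 7.28-fold over all sizes (2.86 ± 0.29 log2 units, limma adjusted p = 1.09e-05).

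VWF (Entrez gene 280958) encodes von Willebrand factor, the clotting protein that endothelial cells store and secrete. It was dim: theca gave 3.6 and 6.5 in small, 38.2 and 30.2 in medium, and 16.5 and 1.4 in large follicles. Granulosa cells gave 1.6 and 10.9 in small, 4.1 and 2.6 in medium, and 5.8 and 3.0 in large follicles. Only the pair of medium theca arrays exceeded 22.5. VWF passed the filter through medium theca alone, and ROBO4 through theca alone, so that a high theca value was a condition for testing them. The difference of VWF over all sizes was 0.52 ± 0.21 log2 units and was not called (limma adjusted p = 0.0829). Its other probe set gave 0.6 to 4.0 on all arrays and was not tested.

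**Figure D1:**
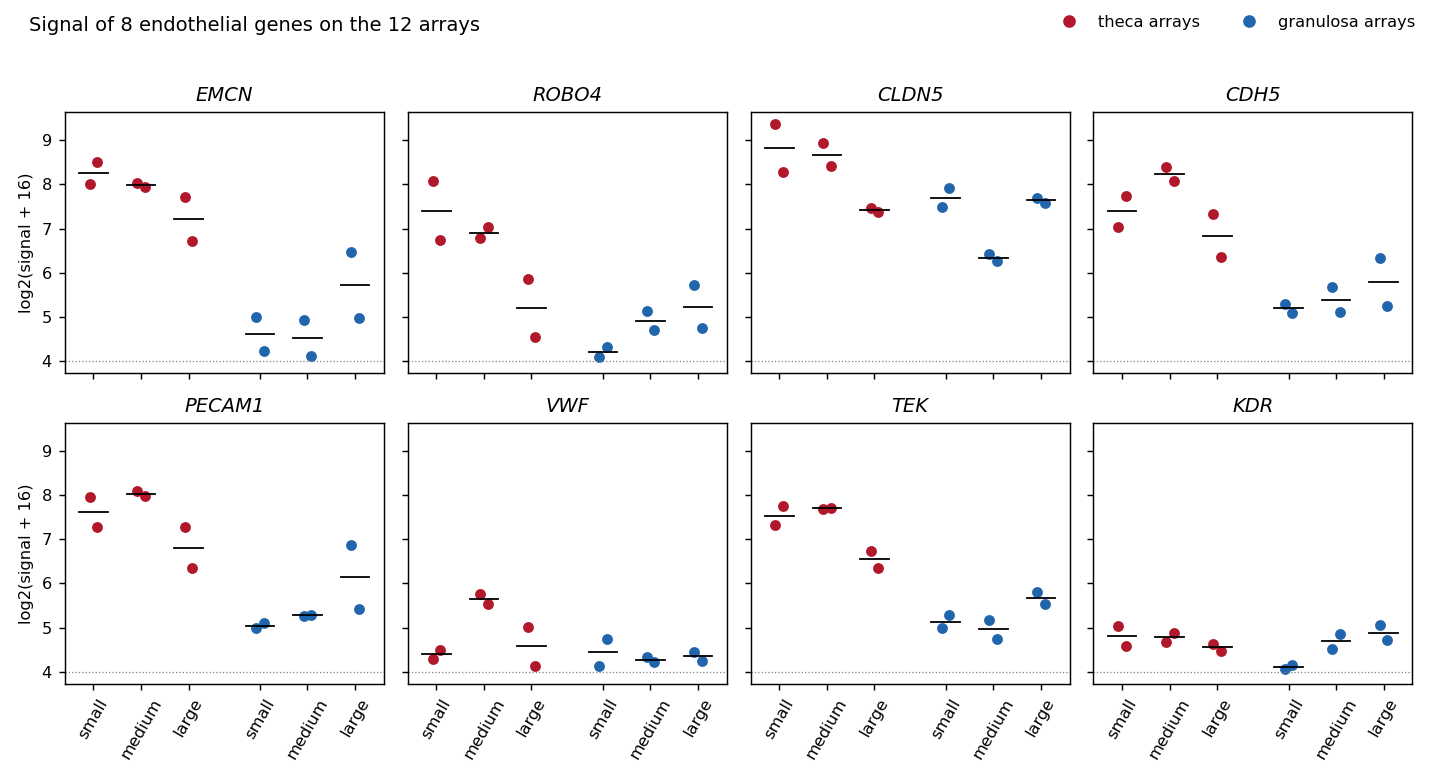
Each panel plots log2(signal + 16) of 1 gene for theca (red, left) and granulosa (blue, right) in small, medium and large follicles, with a point per array, a line at the mean of 2 arrays and a dotted line at a signal of 0. EMCN, CDH5 and TEK have all 6 theca points above all 6 granulosa points, whereas in large follicles the layers overlap for ROBO4, PECAM1 and VWF, theca lies under granulosa for CLDN5, and KDR lies near the dotted line throughout.

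Over all sizes, 6 of the 7 tested members were called higher in theca (EMCN, ROBO4, CLDN5, CDH5, PECAM1 and TEK) and none was called lower. Among all tested probe sets 24.8% were called in this comparison and 11.2% were called higher in theca. The members' median difference was 2.00 log2 units, against -0.10 for all tested probe sets. The 5 members that passed the filter in both layers, each in at least 1 size (EMCN, CLDN5, CDH5, PECAM1 and TEK), were all called. EMCN and TEK passed in granulosa through large follicles alone. For EMCN the signals there were 72.9 on replicate 1, an array that stood apart, and 15.3 on replicate 2. In 3 of the 7 (EMCN, CDH5 and TEK) every theca array exceeded every granulosa array, a pattern that 5.22% of all tested probe sets had. Without the pair of arrays that stood apart the same number, 6 of 7, was called.

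In small follicles, 5 of 7 tested members were called higher in theca, against 9.14% of probe sets called and 5.08% called higher. EMCN was higher by 3.65 ± 0.50 log2 units, ROBO4 by 3.21 ± 0.50, PECAM1 by 2.58 ± 0.45, TEK by 2.40 ± 0.32 and CDH5 by 2.20 ± 0.44. The limma adjusted p of these 5 ran from 0.00049 for TEK to 0.00734 for CDH5. CLDN5 differed by 1.13 ± 0.38 (adjusted p = 0.0756) and VWF by -0.05 ± 0.36 (adjusted p = 0.946), neither called. Of the 5 members that passed the filter in both layers at any size 4 were called. These 4 passed in granulosa through other sizes. Their mean signals in small granulosa were 9.35 (EMCN), 20.7 (CDH5), 17.0 (PECAM1) and 19.35 (TEK), under the filter's signal of 22.5. CDH5 lost its call without replicate 2 of small granulosa (2.09 log2 units). Without replicate 2 of small theca CLDN5 differed by 1.67. Small theca was then 1 array, the one with the GAPDH 3'/5' ratio of 8.36. Without both arrays that stood apart CLDN5 differed by 0.58.

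In medium follicles all 7 tested members were called higher in theca, against 6% of probe sets called and 4.21% called higher. The differences were 3.45 ± 0.50 log2 units for EMCN, 2.84 ± 0.44 for CDH5, 2.76 ± 0.45 for PECAM1, 2.74 ± 0.32 for TEK and 2.33 ± 0.38 for CLDN5. These were followed by 2.00 ± 0.50 for ROBO4 (limma adjusted p = 0.0297) and 1.37 ± 0.36 for VWF (0.0372), the pair whose testing depended on a high theca signal. The other 5 were all called. The calls of ROBO4 and VWF were lost when any 1 of the 4 medium arrays was left out, with adjusted p of 0.0725 to 0.221 for ROBO4 and 0.112 to 0.218 for VWF.

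In large follicles none of the 7 was called by limma, against 4.41% of probe sets called and 2.39% called higher. At an unadjusted p under 0.05 there were 3 of the 7 members and 3615 of all 17236 probe sets. The differences ran from 1.49 ± 0.50 log2 units for EMCN (adjusted p = 0.11) over 1.06 ± 0.44 for CDH5 (0.186), 0.88 ± 0.32 for TEK (0.138) and 0.67 ± 0.45 for PECAM1 (0.42) to -0.03 ± 0.50 for ROBO4 (0.983) and -0.22 ± 0.38 for CLDN5 (0.787). Without the pair of arrays that stood apart, EMCN was called (2.25, adjusted p = 0.0413), as it was with every array centred on its median (1.71, adjusted p = 0.0403). Both large theca arrays were above both large granulosa arrays in 3 of the 7 tested members, where 22.5% of all tested probe sets had this pattern. In small follicles the same pattern held for 6 of 7 against 23.9% of probe sets, and in medium follicles for 7 of 7, ROBO4 and VWF included, against 22.5%.

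**Figure D2:**
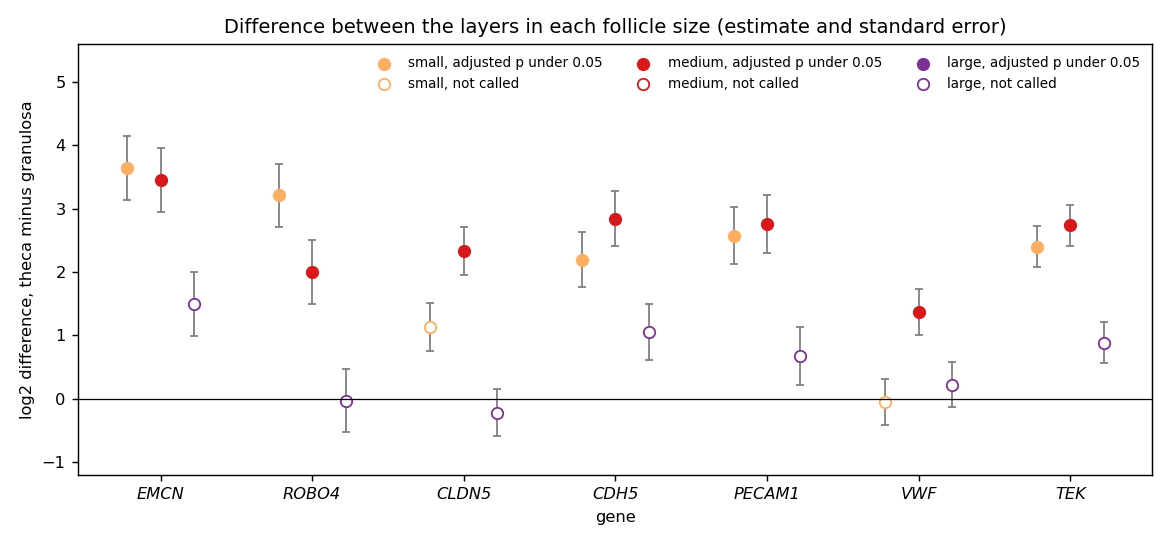
The difference theca minus granulosa in log2(signal + 16) is plotted for the 7 tested genes in small, medium and large follicles, as the limma estimate ± SE with filled points for adjusted p under 0.05. Filled points occur for 5 genes in small and all 7 in medium follicles, and every large-follicle point is open and below the same gene's medium-follicle point.

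Whether the layer difference itself depended on size was tested as an interaction. From medium to large follicles the difference theca minus granulosa fell in 53.3% of all tested probe sets. It fell for all 7 tested members, by 1.15 log2 units for VWF to 2.55 for CLDN5 (median -1.96, large minus medium). For VWF, tested through medium theca alone, and ROBO4, tested through small and medium theca alone, the filter favoured this fall. The other members tested had passed in all 3 theca sizes. None of the 7 was called, with a lowest limma adjusted p of 0.167 for CLDN5, and 0.0232% of all probe sets were called. An unadjusted p under 0.05 was found for all 7 members and for 1297 probe sets in total. Without both arrays that stood apart, large granulosa was 1 array, and the changes were smaller, from -1.05 for VWF to -2.48 for CLDN5. EMCN was then at -1.21, against -1.96 with all arrays, and PECAM1 at -1.37, against -2.09. Large minus small, the change in the layer difference was -3.24 ± 0.71 for ROBO4 (adjusted p = 0.127) and -2.16 ± 0.71 for EMCN (0.29), with a median of -1.52. Again none was called, against 0.0116% of all probe sets, while the unadjusted p was under 0.05 for 5 members and 1820 probe sets. For ROBO4 this interaction was called when replicate 2 of small theca (-3.90) or replicate 2 of large granulosa (-3.73) was left out, and for PECAM1 without the last of these (-2.63). Each of these omissions left a group with 1 array, the one whose quality measures stood apart, and took its spread from the other groups. Without both arrays that stood apart the ROBO4 change was -2.08 (adjusted p = 0.543) and that of PECAM1 -0.84 (0.789). Medium minus small, the layer difference was called to change in none of the 7 members (median 0.34) and in 0% of all probe sets, with 2 members and 433 probe sets at an unadjusted p under 0.05.

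Within theca, all 7 tested members were lower in large than in medium follicles, with a median of -1.22 log2 units, where 50.7% of all tested probe sets were negative. These counts include VWF, tested through medium theca alone, and ROBO4, tested through small and medium theca alone. For both, the filter favoured a lower value in large theca. EMCN, CLDN5, CDH5, PECAM1 and TEK, which passed in all 3 theca sizes, were lower in large theca too. ROBO4 differed by -1.71 ± 0.50, CDH5 by -1.39 ± 0.44, CLDN5 by -1.25 ± 0.38, PECAM1 by -1.22 ± 0.45, TEK by -1.15 ± 0.32, VWF by -1.07 ± 0.36 and EMCN by -0.76 ± 0.50. None was called by limma, the lowest adjusted p being 0.869 for TEK, and 0% of all probe sets were called. At an unadjusted p under 0.05 there were 6 of 7 members and 539 of all probe sets.

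Between large and small theca 6 of 7 members had lower means in large follicles (median -0.99), against 53.5% of all probe sets. The filter favoured this direction for ROBO4, which passed through small and medium theca alone. None was called, and 0.0348% of all probe sets were. The widest differences were -2.20 ± 0.50 log2 units for ROBO4 (limma adjusted p = 0.169) and -1.40 ± 0.38 for CLDN5 (0.245), and an unadjusted p under 0.05 was found for 3 members and 1765 probe sets. Without replicate 2 of small theca both were called (ROBO4 -2.87, adjusted p = 0.0164, and CLDN5 -1.95, adjusted p = 0.0175). Small theca was then 1 array, the one with the GAPDH 3'/5' ratio of 8.36, and its spread was assumed to be that of the other groups. Without this array and replicate 1 of large granulosa the differences were -1.53 for ROBO4 (adjusted p = 0.417) and -0.86 for CLDN5 (0.562).

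Counted by array, both large theca pools were below the other 4 theca pools for EMCN, ROBO4, CLDN5 and TEK, that is 4 of the 7 tested members against 9.61% of all tested probe sets. For ROBO4 this order was favoured by the filter. The mean of large theca was the lowest of the 3 theca sizes in 6 of 7, against 36.2% of probe sets, and VWF was the exception. Replicate 2 of large theca was the lowest theca array in 7 of 7, against 19.6% of all tested probe sets. This array also had the highest sum of 11 granulosa cell marker genes in theca. That sum was 8507 and 9425 on the small, 14939 and 8939 on the medium, and 15588 and 20729 on the large theca arrays, against 20742 to 31893 on the granulosa arrays. Among these markers, the aromatase gene CYP19A1 gave 1633.2 and 4279.2 in large theca, against 21.9 and 52.8 in small theca, whereas KRT18 gave 137.6 and 56.7 in large theca, against 292.5 and 221.4 in small theca. Of the 11 markers, 1 was called higher in large than in small theca and none between large and medium theca. The part of granulosa cells in the lower endothelial signal of large theca was not tested. Without replicate 2 of large theca, the differences large minus medium ran from -0.26 for EMCN to -1.21 for CLDN5. The summed signal of the 8 members was 1654 and 1284 on the small, 1628 and 1393 on the medium, and 796 and 452 on the large theca arrays. Medium and small theca did not differ in a common direction: 4 members were higher and 3 lower in medium, with a median of 0.16 and no call (0.0116% of all probe sets called, and 1 member and 1069 probe sets at an unadjusted p under 0.05). VWF had the widest difference there, 1.25 ± 0.36 log2 units (limma adjusted p = 0.799). Several of these signs were unstable. Without both arrays that stood apart ROBO4 (0.17) and CLDN5 (0.39) turned higher in medium theca and TEK (-0.06) lower, while the other tested members kept their sign. The dimmer EMCN probe set differed by 0.47, against -0.28 on the brighter one.

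In granulosa cells of small and medium follicles every member but CLDN5 gave signals under 35. For 5 of the 7 tested members, all but CLDN5 and VWF, the brightest granulosa array was replicate 1 of large follicles, against 28.2% of all tested probe sets. Large minus small, EMCN differed by 1.11 ± 0.50 log2 units, PECAM1 by 1.10 ± 0.45 and ROBO4 by 1.04 ± 0.50, and the median of the 7 was 0.59. None was called by limma (lowest adjusted p = 0.271), against 2.22% of all probe sets, and the unadjusted p was under 0.05 for 2 members and 2482 probe sets. Without replicate 2 of large granulosa the PECAM1 difference was 1.82. That group was then 1 array, the one with the actin 3'/5' ratio of 21.0. Large minus medium, 47.1% of all tested probe sets had a negative difference. All 7 members had a positive one, with a median of 0.70. None was called, against 0.679% of all probe sets (3 members and 1997 probe sets at an unadjusted p under 0.05). Medium minus small the median was -0.08 and none was called, against 0.0058% (1 member and 581 probe sets unadjusted).

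Replicate 1 of large granulosa was also the array with the highest summed signal of leukocyte and of red blood cell genes among all 12. The leukocyte list of 10 genes summed to 13421 on it and to 4463 on replicate 2, and to 544 to 1382 on the granulosa arrays of smaller follicles. On the theca arrays it summed to 1192 to 3075, with the highest sum on replicate 1 of large follicles. All 10 leukocyte genes were called higher in large than in small granulosa cells. The common leukocyte antigen gene PTPRC gave 597.4 and 141.9 in large granulosa, against 25.6 and 3.8 in small granulosa. The haemoglobin gene HBB gave 578.5 on replicate 1 and 50.4 on replicate 2, against 7.9 to 34.7 on the other granulosa arrays. The part of these cells in the endothelial signal of granulosa was not tested. Leaving out this array and replicate 1 of small theca, the difference large minus small in granulosa was 0.36 log2 units for EMCN, 0.38 for PECAM1 and 0.55 for ROBO4.

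The probe sets of 1 gene did not rank the theca arrays alike. For CDH5 the dimmer probe set gave 3.0 and 33.9 in small, 45.1 and 41.7 in medium, and 21.6 and 1.4 in large theca, against 1.2 to 4.0 in all granulosa arrays. The dimmer PECAM1 probe set gave 24.5 and 81.6, 161.7 and 167.3, and 79.4 and 33.6 in small, medium and large theca, against 2.4 to 39.8 in granulosa cells. That of EMCN gave 43.3 and 235.3, 144.6 and 162.0, and 135.8 and 65.1 in theca, against 5.4 to 47.8 in granulosa cells. In PECAM1 and EMCN, replicate 1 of small theca was thus the lowest theca array on the dimmer probe set, while the brighter one placed it above both large pools. This is the array with the raised GAPDH 3'/5' ratio, and the part of RNA quality in it was not tested.

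Of the 3 dimmer probe sets that were tested, that of EMCN passed the filter in both layers. That of PECAM1 passed through theca alone, and that of CDH5 through medium theca alone. Over all sizes the differences were 2.08 ± 0.31 log2 units for EMCN (limma adjusted p = 0.000333), 1.91 ± 0.27 for PECAM1 (0.000217) and 0.99 ± 0.26 for CDH5 (0.012). In small follicles they were 2.42 for EMCN and 1.74 for PECAM1, both called, and 0.77 for CDH5, which was not called (adjusted p = 0.293), unlike its brighter probe set. In medium follicles all 3 were called, at 2.62, 1.65 and 3.10 log2 units for EMCN, CDH5 and PECAM1, and in large follicles none was (1.21, 0.56 and 0.88). Large minus medium theca was -0.61, -1.21 and -1.39 on the dimmer probe sets of EMCN, CDH5 and PECAM1, the same sign as on the brighter ones. For CDH5 the filter favoured this sign and the call in medium follicles. Large minus small theca was -0.14 for EMCN and 0.13 for PECAM1 on the dimmer probe sets, so that the sign for PECAM1 depended on the probe set.

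**Figure D3:**
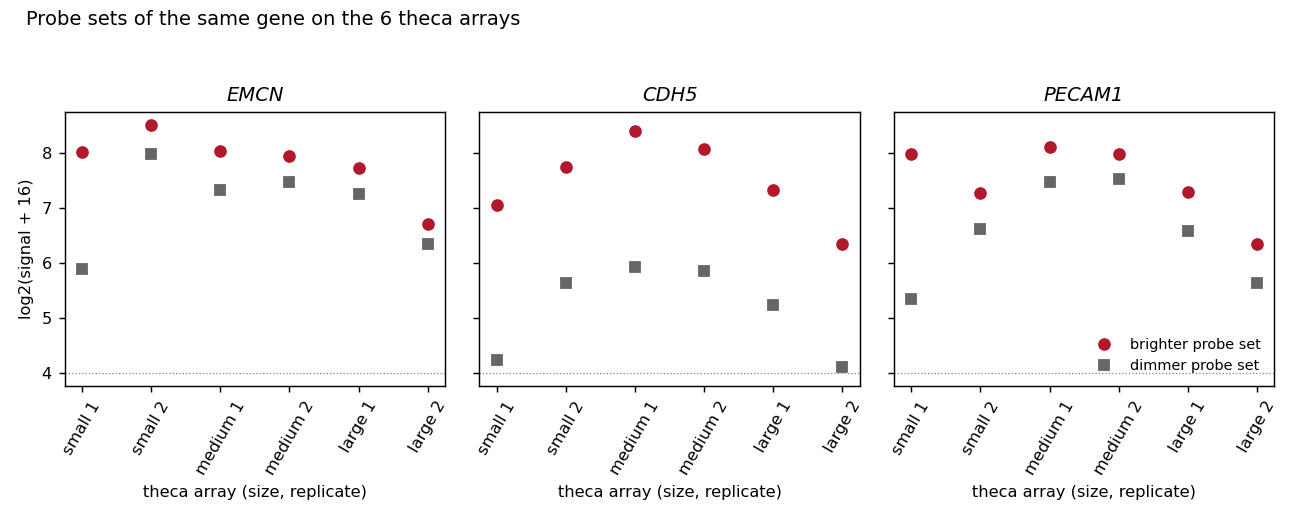
The log2(signal + 16) of the brighter (red circles) and the dimmer (grey squares) probe set of EMCN, CDH5 and PECAM1 is plotted for each of the 6 theca arrays, with a dotted line at a signal of 0. On the brighter probe set of EMCN and PECAM1 replicate 1 of small theca lies above both large arrays, on the dimmer one it is the lowest, and both probe sets of all 3 genes are lower on the large than on the medium arrays.

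Other genes known from endothelium were mostly higher in theca as well. From a list of 43 symbols, 32 had a probe set and 30 were tested. Over all sizes 23 were called higher in theca, against 11.2% of all tested probe sets. None was called lower, against 13.6%, and the median difference was 1.37 log2 units. In this and the other gene lists, a gene can pass the filter through theca alone, which favours a call higher in theca. Such genes were not counted apart. The widest differences were 5.00 ± 0.30 for SPARCL1, a matricellular protein, 4.35 ± 0.30 for GNG11, a G protein subunit, 3.53 ± 0.24 for CAV1, the coat protein of caveolae, and 3.51 ± 0.25 for CALCRL, the receptor of adrenomedullin (limma adjusted p at most 3.45e-07). Several of these genes, such as SPARCL1 and CAV1, are also made by other stromal cells. By size, 18 were called higher in small follicles, 17 in medium ones and 6 in large ones, with medians of 1.91, 1.98 and 0.36. The shares of all tested probe sets called higher were 5.08%, 4.21% and 2.39% in the same order.

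These counts moved with single arrays. Without replicate 2 of small granulosa 11 were called in small follicles, and without replicate 2 of medium granulosa or either medium theca array 10 were called in medium follicles. In large follicles 2 or 3 were called when either theca array or replicate 2 of granulosa was left out. The 6 that were called there with all arrays were SPARCL1 (4.64), GNG11 (3.22), CAV1 (2.81), CALCRL (2.24), TM4SF1 (1.64) and AQP1 (1.54, all in log2 units). AQP1 is the water channel of capillaries and TM4SF1 a membrane protein of endothelium. Large minus medium theca, 27 of the 30 were lower (median -0.60), against 50.7% of all tested probe sets, and none was called.

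Transcription factors that act in endothelium were called higher in theca in 7 of 10 tested genes, against 11.2% of all tested probe sets. None was called lower, and the median was 1.15 log2 units. SOX18, a factor of vessel and lymphatic development, led with 2.36 ± 0.21, followed by the ETS factors FLI1 (1.97 ± 0.29) and ERG (1.52 ± 0.19) and by LMO2 (1.56 ± 0.23), a partner of blood and vessel factors. SOX18 gave 127.4 and 124.4 in small, 180.6 and 150.4 in medium, and 95.2 and 49.8 in large theca, against 1.9 to 24.0 in all granulosa arrays. Its large theca arrays were the lowest of the 6. All 10 factors were lower in large than in medium theca (median -0.54), against 50.7% of all tested probe sets, and none of the 10 was called.

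The VEGF and angiopoietin pathway acts through KDR and TEK. Of its 14 tested genes 4 were called higher in theca and 2 lower over all sizes, with a median of 0.11 log2 units, where 11.2% of all probe sets were called higher and 13.6% lower. The share called lower was thus near that of all probe sets. Higher were the endothelial partners PTPRB (1.44 ± 0.26), a phosphatase that acts on TEK and CDH5, and TIE1 (1.37 ± 0.27), the co-receptor of TEK, and the ligands ANGPT4 (0.87 ± 0.30) and VEGFD (0.66 ± 0.19). Lower in theca were the ligands VEGFA (-2.58 ± 0.34, limma adjusted p = 0.000103) and PGF (-1.46 ± 0.34, adjusted p = 0.00644). The number called higher was 2 with the filter at the 60th percentile, and also when replicate 1 of small granulosa, replicate 2 of medium theca or replicate 1 of large theca was left out.

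VEGFA, the main growth factor for vessels, gave 65.3 and 80.6, 61.1 and 71.6, and 105.9 and 107.5 in theca of small, medium and large follicles. In granulosa cells it gave 345.5 and 465.4, 446.5 and 666.7, and 1971.3 and 318.8 in the same sizes. Every granulosa array was above every theca array, the opposite order to TEK. ANGPT2, which opposes ANGPT1 at TEK in many settings, differed by -0.56 ± 0.38 log2 units and ANGPT1 by 0.17 ± 0.21, neither called. FLT1, the other VEGFA receptor, differed by 0.75 ± 0.26 and was not called.

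Genes listed for the cells around the endothelium were mostly higher in theca too, though bulk RNA of a layer does not show which cells made them. Of 10 tested mural genes, listed for pericytes and vascular smooth muscle, 7 were called higher in theca, against 11.2% of all tested probe sets. None was called lower (median 1.39 log2 units), and the pericyte gene RGS5 led (3.60 ± 0.18). RGS5 gave 266.1 and 322.2 in small, 201.0 and 322.0 in medium, and 227.0 and 251.2 in large theca, against 2.9 to 11.9 in granulosa cells. Its large theca arrays lay within the range of the other theca arrays. The summed mural signal was 13115 and 10902 on small, 17584 and 14987 on medium, and 21674 and 16267 on large theca arrays, so that it was not lower in the large pools. Large minus medium theca, 4 of 10 mural genes were lower (median 0.16), against 50.7% of all tested probe sets.

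Among genes listed for vessel basement membrane, 6 of 10 were called higher in theca, against 11.2% of all tested probe sets. Bulk RNA does not show whether vessels made them. NID1 differed by 4.61 ± 0.23 log2 units and COL15A1 by 4.13 ± 0.27. All 10 genes of this list were lower in large than in medium theca (median -0.67, none called), against 50.7% of all tested probe sets. The steroid genes of theca cells summed to 28382 and 19562 on small, 18720 and 20218 on medium, and 22567 and 17851 on large theca arrays. Of these 6 genes, 3 were lower in large than in medium theca. Leukocyte genes were lower in large than in medium theca in 1 of 10 cases. The sum of granulosa cell markers, in contrast, was highest on the large theca arrays (15588 and 20729). The difference between the members' sums and those of the other lists across theca sizes was not tested.

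**Figure D4:**
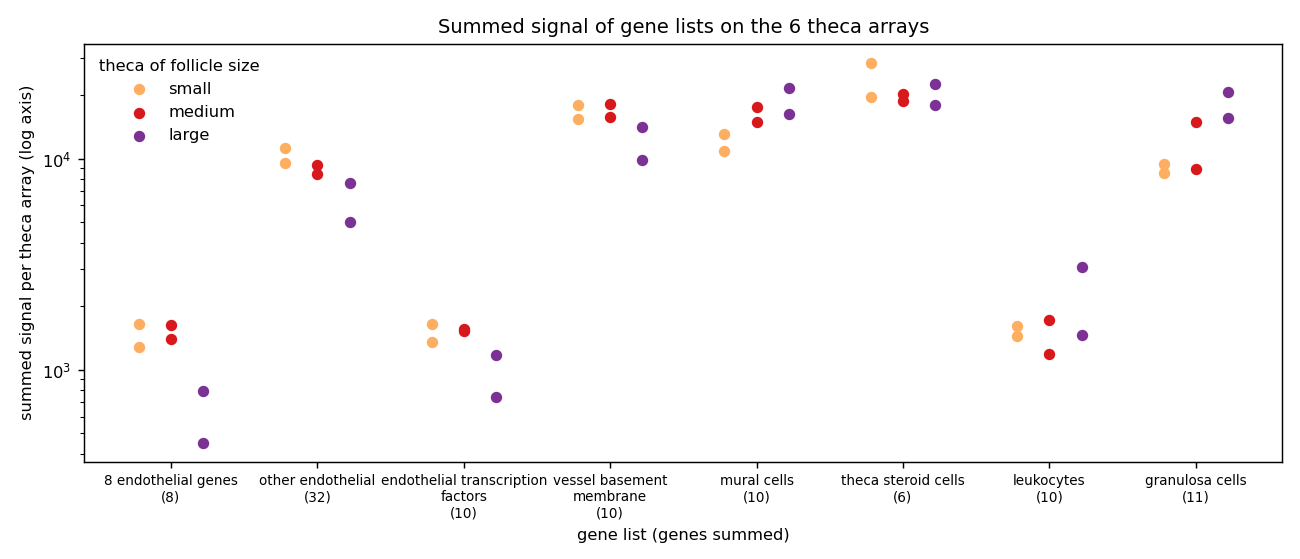
Summed signal per theca array, on a log axis, is plotted for the 8 members and 7 lists of other genes in small, medium and large follicles. The members' sum is 796 and 452 on the large arrays, below the 1284 to 1654 of the other theca arrays, while the mural sum of the large arrays lies within or above that of the others and the granulosa cell sum lies above it.

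The genes whose profile over the 12 arrays was most like that of the members were sought among 7886 genes. The measure was the root mean square difference between centred log2 profiles and the members' mean profile, and the closest probe set stood for a gene. The closest were PEAR1 (0.248 log2 units), MALL (0.252), IPO11 (0.278), CD34 (0.280), INKA1 (0.284), MEG3 (0.285), PALMD (0.285) and PTPRB (0.292). The median over all tested probe sets of these genes was 1.01. The members themselves were at 0.303 for TEK to 0.791 for KDR. CD34, the sialomucin of endothelium and blood progenitors, and PTPRB were on the lists of endothelial genes. Since the profile chose the 8 closest genes, their values are a description: theca minus granulosa was 1.68 to 2.20 log2 units in small, 1.60 to 2.72 in medium and 0.32 to 0.90 in large follicles.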

How the data were processed

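Per the labels, total RNA of 12 pools of theca or granulosa cells was hybridised to 12 arrays, 2 per layer and follicle size, and this number of arrays limits the precision. The authors deposited signal intensity values on a linear scale, with a value for each probe set on each array. What software made them is not given in the sources used here, detection calls were not used, and the values show that each array was scaled to 1 trimmed mean (2% trimmed). Groups came from the sample titles, and all 12 columns matched a sample.

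Of 24128 probe sets, 112 controls were left out. Gene names came from the platform annotation, in which 13292 probe sets had 1 symbol, 86 had several, so that no name was used, and 10638 are unnamed in it. Entrez identifiers of 13263 probe sets were found in the RefSeq gene table, and 0 symbols changed.

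Signals were taken as log2(signal + 16) with no further normalization. Probe sets were tested where 1 or more group means of these values lay above the 40th percentile of the whole table, which corresponds to a signal of 22.5. One limma model (R 4.3.3, limma 3.58.1) with a mean per group gave 13 contrasts, with 6 residual degrees of freedom and p-values adjusted by Benjamini-Hochberg within each contrast. The code was checked on simulated data. The labels do not say that a replicate number marks a shared animal, litter or day, so the numbers were not taken to pair samples. Figures were drawn with matplotlib 3.10.9.

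The 8 genes and the lists of other genes were chosen with earlier results of these data known. All probe sets of the 8 genes are given. From each list up to 4 called genes with the widest difference between the layers over all sizes are named, and other genes named were chosen after their values were seen. Alternatives were the pseudocount, the filter, quantile normalization, median centring, a trend in the spread, a replicate block (over all arrays, and within each layer, the second chosen after seeing the data), the mean of a gene's probe sets, only the arrays compared, and leaving out arrays.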

Additional observations from a re-analysis of the deposited data

How the results depend on the processing

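With all alternatives other than leaving out arrays, 6 members were called higher in theca over all sizes, 5 or 6 in small and 5 to 7 in medium follicles (VWF had no value with the filter at the 60th percentile). Leaving out each array in turn gave 6 to 7 over all sizes, 4 to 6 in small follicles, 5 to 7 in medium ones and 0 in large ones. Large follicles gave 1 call (EMCN) with arrays centred on their medians and 1 without both arrays that stood apart. Centring moved the median of all probe sets in that comparison to 0.10, against -0.12. Deviations of same-numbered arrays correlated at 0.140 to 0.267 between theca sizes, 0.073 to 0.402 between granulosa sizes and -0.335 to 0.142 between the layers. The replicate block over all arrays left the member counts at 6, 5, 7 and 0 and called 21 of 30 other endothelial genes over all sizes, against 23. A replicate block within each layer, chosen after seeing the data, gave 6, 6, 7 and 1, with calls for CLDN5 in small (adjusted p = 0.0399) and EMCN in large follicles (0.0383), and no member called in the comparisons of theca sizes or of the layer difference between sizes. Leaving out 1 array gave 0 to 2 calls for theca large minus small, 0 to 1 for granulosa large minus small and 0 to 2 for the layer difference in large minus small. ROBO4 lost its call in medium follicles with log2(signal + 1), log2(signal + 64) and no filter (adjusted p = 0.112, 0.0789 and 0.0519), and VWF with the first and second of these (0.104 and 0.106). VWF was called over all sizes without replicate 2 of large theca (0.67, adjusted p = 0.0469).

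Signs turned only for differences that were not called; the cause was not tested. For theca minus granulosa these were VWF in small follicles (0.079 with log2(signal + 1), 0.048 without both arrays), ROBO4 in large follicles (0.0030 with log2(signal + 64), 0.20 with quantile normalization, 0.19 with median centring, 0.46 without both arrays) and CLDN5 in large follicles (0.0028 with median centring). For theca medium minus small they were EMCN (0.095 with the mean of its probe sets) and, without both arrays, ROBO4 (0.17), CLDN5 (0.39) and TEK (-0.059). CLDN5 in granulosa large minus small was 0.0020 with quantile normalization. Leaving out 1 array spanned, for theca minus granulosa, -0.36 to 0.25 (VWF, small), -0.051 to 1.39 (PECAM1, large), -0.68 to 0.62 (ROBO4, large) and -0.23 to 0.68 (VWF, large). It spanned -0.70 to 0.39 for CLDN5, -1.16 to 0.17 for ROBO4 and -0.059 to 0.38 for TEK in theca medium minus small. VWF spanned -0.27 to 0.63 in theca large minus small, -0.40 to 0.21 in granulosa large minus small and -0.17 to 0.73 in the layer difference in large minus small, and CLDN5 spanned -0.27 to 0.16 in granulosa large minus small.

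The number of all probe sets called moved as well. Leaving out 1 array gave 2647 to 4856 over all sizes (4273 with all arrays), 500 to 2266 in small (1575), 361 to 1300 in medium (1034) and 200 to 1007 in large follicles (760). In large follicles log2(signal + 1) gave 367. Without both arrays there were 783 calls in small follicles, 1586 in medium ones and 506 in large ones, and the block within each layer gave 2418 in small and 1286 in large follicles. KDR lay under the filter, so that its dim probe sets limit what these arrays show of it.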

Other observations

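ROBO4 belongs to a family of guidance receptors, and 6 genes of guidance ligands and receptors were tested beside it. Over all sizes 3 were called higher in theca: the receptor ROBO1 (1.97 ± 0.26 log2 units ± SE, limma adjusted p = 0.000118) and the ligands SLIT3 (1.61 ± 0.20) and SLIT2 (1.19 ± 0.21). Called lower in theca were the netrin NTN4 (-0.90 ± 0.25) and the semaphorin SEMA6D (-0.88 ± 0.26). These 5 are not made by endothelium alone. Among all tested probe sets, 11.2% were called higher and 13.6% lower in theca over all sizes. In large minus medium theca 2 of the 6 genes were lower, against 50.7% of all tested probe sets, and none was called.

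Over all sizes, 11.2% of all tested probe sets were called higher in theca and 13.6% lower. Of 5 tested Notch genes, 1 was called, the target HEY1 (0.56 ± 0.19 log2 units higher in theca, limma adjusted p = 0.0435). Of 2 tested platelet genes, the integrin ITGB3 was higher in theca (1.65 ± 0.22) and the chemokine PF4 lower (-0.94 ± 0.23). Of 10 leukocyte genes, C1QA was called higher in theca (0.91 ± 0.30) and CD14 (-0.98 ± 0.29) and FCER1G (-0.70 ± 0.24) lower. The counts of Notch and leukocyte genes were thus near the shares of all probe sets. Of 4 tested red blood cell genes none was called over all sizes by limma, and 0 had an unadjusted p under 0.05. Markers of granulosa cells were called lower in theca in 8 of 11 genes (KRT18 by -3.77 log2 units), fibroblast genes were called higher in 8 of 9 (OGN by 5.36), and genes of theca steroid cells in 6 of 6.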
